A study of Mus musculus with 6 samples.

Results

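The lens is kept as a lens by a small set of transcription factors that first make the head ectoderm competent and then divide the work between its 2 cell types, the anterior epithelium and the fiber cells. The set described here is Pax6, Foxe3, Prox1, Maf, Sox1, Sox2, Pitx3, Six3, Mab21l1 and Tfap2a, taken by gene symbol: 10 genes of the 41449 rows of the table. All 10 had a value in every library and all 10 passed the filter on low values, a mean of at least 1 FPKM (fragments per kilobase of transcript, scaled to sequencing depth).

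RNA was sequenced from lenses of mice 2 months old, 3 WT libraries and 3 FNcKO libraries, each from 2 lenses of which the animals are not named in the labels. WT mice were wild type on C57BL/6. FNcKO mice carried a conditional knockout of fibronectin on a mixed background of C57BL/6, 129 and FVB/N; which Cre line was used, and in which cells it acts, is not given in the labels. Genotype and strain background divide the libraries in the same way, so every comparison below is between both together and they cannot be told apart.

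Fn1, the targeted gene, was low in all libraries. Replicates 1 to 3 had 0.135, 0.188 and 0.253 FPKM in WT, and 0.128, 0.0482 and 0.0942 FPKM in FNcKO. The whole-gene value does not show whether the deleted part is present. Lens identity was checked on fixed marker lists, each summed over its genes with a value in every library. The 13 fiber markers summed so reached 198000 to 207000 FPKM in WT and 202000 to 216000 FPKM in FNcKO, and 12 epithelial markers 1590 to 1660 and 1650 to 1940 FPKM. Markers of other eye tissues that also express some of these factors were present, at sums far below those of the fiber markers. The sums were 27.1 to 75.3 FPKM in WT and 38.4 to 39.6 FPKM in FNcKO over 11 photoreceptor genes, and 130 to 191 and 187 to 293 FPKM over 21 genes of other retinal cells. They were 126 to 142 and 111 to 147 FPKM over 8 genes of ciliary body and iris, and 11.6 to 19.0 and 6.79 to 8.49 FPKM over 10 pigment cell genes. Apoe alone, at means of 136.3 FPKM in WT and 200.7 FPKM in FNcKO, made up most of the sum of other retinal cells. Acta2, at 99.33 and 70.85 FPKM, did so for ciliary body and iris. Of the 5 genes tested there, none passed limma's test. Their log2 change was above 0 for 3, among them Optc (18.25 and 42.86 FPKM, limma adjusted p = 0.0682), and under 0 for 2. The 10 genes of cornea and conjunctiva summed to 49.2 to 56.7 and 33.9 to 66.8 FPKM. Aldh3a1, at means of 28.17 FPKM in WT and 32.74 FPKM in FNcKO, and Perp, at 23.64 and 21.7 FPKM, made up most of that sum. The corneal markers Krt12 and Kera of the same list stood at 0 in every library. Red blood cell, endothelial and macrophage lists each summed to under 10 FPKM in every library. Of the retinal genes, Gnat1 (rods) and Map2 (neurons) passed limma's test, both lower in FNcKO, where 1.03% of all genes tested were. They were 1 of 10 photoreceptor genes tested and 1 of 9 of other retinal cells. Gnat1 had no value in WT replicate 2. The log2 change from WT to FNcKO was under 0 for 9 of the 10 photoreceptor genes (median -0.445). For other retinal cells it was above 0 for 6 of the 9 (median 0.184). The part of these tissues in the values below was not tested.

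As background, Pax6 is the paired-domain and homeodomain factor without which no lens forms. Six3, a homeodomain factor, acts upstream of and together with Pax6, and Sox2, an HMG-box factor, works with Pax6 when the lens is induced. Mab21l1 encodes a protein of the Mab-21 family, not a classical DNA-binding factor, and is needed for growth of the lens placode. Foxe3, a forkhead factor, keeps the epithelium dividing, Pitx3 is the homeodomain factor lost in the aphakia mouse, and Tfap2a encodes AP-2 alpha, which acts in the epithelium and in separation of the lens vesicle. In fiber cells Maf, a basic leucine zipper factor, drives crystallin genes, Prox1, a homeodomain factor, is needed for elongation, and Sox1 is needed for gamma crystallin expression. In bulk lens RNA, fewer cells of a type and less RNA per cell cannot be told apart.

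Stretches of 250 bases before the annotated start were available from RefSeq (GRCm38.p6) for 8 of the 10 genes, in 11 windows because some genes have several starts; Maf and Mab21l1 were not matched. They were searched on both strands for short letters recognised by the families of these factors. The letters were TGCTGA (a half-site of the Maf recognition element), CATTGT (SOX), TAATCC (bicoid-type homeodomain, the Pitx class), TGTTTA (forkhead), GCCNNNGGC (AP-2) and TATAAA (a core promoter element); no motif is contained in another, and no matches overlapped. One window is shown for each of the 4 genes with a match, for Prox1 that of its most upstream start, and capitals mark the match. The windows lie outside the gene's own exons, apart from 1 base of Pitx3.
Prox1, chr1:190170828-190171077, minus strand: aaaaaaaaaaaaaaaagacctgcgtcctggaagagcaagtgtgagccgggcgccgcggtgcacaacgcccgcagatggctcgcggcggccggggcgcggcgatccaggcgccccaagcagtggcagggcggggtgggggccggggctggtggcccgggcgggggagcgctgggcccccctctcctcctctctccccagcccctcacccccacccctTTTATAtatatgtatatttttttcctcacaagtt
Pax6, chr2:105668646-105668895, plus strand: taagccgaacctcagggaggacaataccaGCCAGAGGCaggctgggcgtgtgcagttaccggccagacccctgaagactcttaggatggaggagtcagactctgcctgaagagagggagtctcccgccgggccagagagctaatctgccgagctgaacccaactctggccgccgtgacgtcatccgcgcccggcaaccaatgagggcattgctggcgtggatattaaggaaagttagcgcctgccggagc
Sox2, chr3:34649745-34649994, plus strand: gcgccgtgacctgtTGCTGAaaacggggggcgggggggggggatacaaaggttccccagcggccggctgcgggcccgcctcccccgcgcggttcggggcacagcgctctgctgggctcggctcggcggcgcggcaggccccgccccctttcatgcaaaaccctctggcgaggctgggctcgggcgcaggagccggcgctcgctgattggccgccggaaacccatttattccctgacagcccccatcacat
Pitx3, chr19:46148326-46148575, minus strand: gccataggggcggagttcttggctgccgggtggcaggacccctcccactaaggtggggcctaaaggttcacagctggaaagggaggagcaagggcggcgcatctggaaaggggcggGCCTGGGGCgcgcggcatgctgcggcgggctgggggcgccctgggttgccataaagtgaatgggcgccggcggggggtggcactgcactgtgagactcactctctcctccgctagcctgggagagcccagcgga

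The Prox1 window holds TATAAA on the reverse strand with its first base 34 bases before the start, a sequence found in 12.4% of the 32851 windows of all genes. The Pax6 and Pitx3 windows hold the AP-2 letters, 221 and 134 bases before the start, as 13.7% of all windows do. The Sox2 window holds the Maf half-site 236 bases before the start, found in 16.1% of all windows. A second Prox1 window holds the forkhead letters, found in 12% of all windows, and none of the 11 windows holds the SOX or the bicoid-type letters (10.7% and 6.25% of all windows). A match is a description of letters and not a binding site.

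The first question was how strongly the adult lens expresses each factor. All 10 were expressed in every library, and the lowest of them had a WT mean above that of 71.9% of the 10149 genes tested. FPKM is scaled to transcript length, so the levels of different genes can be set side by side as far as each row's annotation holds. Limits of single rows, such as that of Foxe3 and those with antisense partners, are given below. Maf (chromosome 8, 115703253 to 115706894, GRCm38) was the most abundant, with means of 64.2 ± 2.63 FPKM for WT and 78.8 ± 8.66 FPKM for FNcKO (SD, n = 3 each). Prox1 (chromosome 1, 190118035 to 190170680) followed at 59.1 ± 1.38 and 59.5 ± 4.84 FPKM (SD, n = 3 each). Pax6 (chromosome 2, 105668896 to 105698410) came next at 19.3 ± 0.55 and 19.5 ± 1.37 FPKM (SD, n = 3 each). These 3 factors kept their order in both genotypes, and the ranges of neighbours in the order did not overlap.

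The other 7 factors had WT means between 8.60 and 14.4 FPKM. In WT the order went on with Pitx3, Sox1, Foxe3, Six3, Mab21l1, Sox2 and Tfap2a. From Pitx3 to Mab21l1 each neighbour's range overlapped the next, and Sox2 and Tfap2a overlapped too. Between Mab21l1 and Sox2 the ranges were apart, at means of 12.02 and 9.16 FPKM. In FNcKO, Sox1 stood above Pitx3 in every library, and Foxe3 stood 8th instead of 6th. The FNcKO ranges overlapped between Six3 and Mab21l1, Mab21l1 and Foxe3, and Foxe3 and Sox2, and were apart between all other neighbours.

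**Figure D1:**
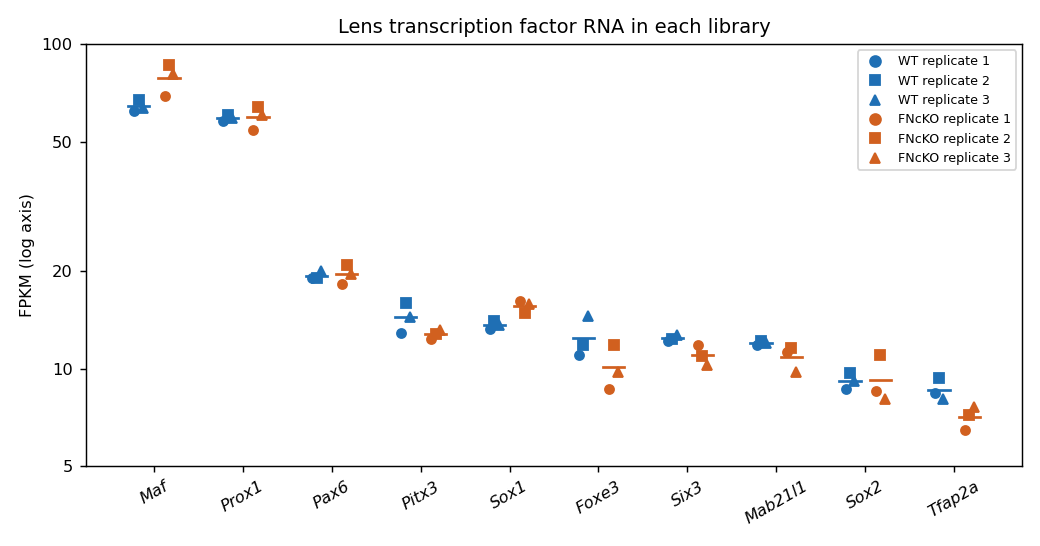
FPKM on a log axis of each factor in each library, with WT in blue and FNcKO in orange, a symbol for each replicate number and a bar at each mean. Maf and Prox1 lie above 50 FPKM, Pax6 near 20 FPKM and the other 7 below 17 FPKM, in both genotypes.

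The second question was whether lenses of FNcKO mice held a different amount of these RNAs. None of the 10 factors passed the test: limma's adjusted p ran from 0.203 for Sox1 to 0.986 for Sox2, where 1.89% of the 10149 genes tested passed an adjusted p of 0.05 (0.857% higher and 1.03% lower in FNcKO). At an unadjusted p of 0.05, 3 factors passed, Sox1, Maf and Tfap2a, against 18.1% of all genes tested. WT and FNcKO values did not overlap for 5 of the 10, against 25.6% of all genes and 25.1% of the 9407 with a value in every library. These were Maf and Sox1 with higher FNcKO values (9.31% of all genes, 9.1% of the 9407) and Tfap2a, Six3 and Mab21l1 with lower FNcKO values (16.3% and 16%). The median log2 change of the 10 was -0.07, beside -0.04 over all genes tested. Each log2 change is FNcKO minus WT of log2(FPKM + 1), so that for a gene near the filter it is smaller than the true fold.

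The data bound how large a change could be. All 10 of the 95% intervals lay within a log2 change of 1 in either direction, and the widest bounds were -0.63 for Foxe3 and 0.52 for Maf. These bounds hold for the values as deposited. With libraries set to the same FPKM total without crystallins, the interval of Maf ran from 0.18 to 1.23, so the limit of 1 held for 9 of the 10.

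Among the factors that lead fiber cell differentiation, Maf had 62.1, 67.1 and 63.4 FPKM in the WT libraries, here and below in the order of replicates 1 to 3. In FNcKO it stood at 69.3, 86.4 and 80.6 FPKM. Every FNcKO library lay above every WT library, with FNcKO replicate 1 the closest to WT. The ratio of means was 1.23 and the log2 change 0.29 (SE 0.096, 95% interval 0.05 to 0.52; limma unadjusted p = 0.0251, adjusted p = 0.21).

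Sox1 (chromosome 8, 12395519 to 12399555, 1 exon) stood at 13.2, 14.1 and 13.6 FPKM in WT and 16.2, 14.9 and 15.8 FPKM in FNcKO. Again all 3 FNcKO libraries lay above all 3 WT libraries, here with FNcKO replicate 2 the closest. The log2 change was 0.18 (SE 0.060, 95% interval 0.03 to 0.33; limma unadjusted p = 0.0235, adjusted p = 0.203). Prox1 differed from both. Its WT values of 57.8, 60.5 and 59.0 FPKM lay inside the FNcKO range of 54.2, 63.8 and 60.5 FPKM. The log2 change of Prox1 was 0.01 (95% interval -0.18 to 0.20; limma unadjusted p = 0.937).

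Among the factors of lens induction, Pax6 stood at 19.0, 19.0 and 19.9 FPKM in WT and 18.2, 20.9 and 19.5 FPKM in FNcKO. The groups overlapped fully, and the log2 change was 0.02 (95% interval -0.16 to 0.19; limma adjusted p = 0.935). Sox2 (chromosome 3, 34649995 to 34652461, 1 exon) had WT values of 8.65, 9.66 and 9.18 FPKM and FNcKO values of 8.52, 11.0 and 8.05 FPKM. Its highest and its lowest value were both from FNcKO, which had a coefficient of variation of 17.4% beside 5.52% in WT. The interval of its log2 change, -0.30 to 0.29, was accordingly wider than that of Pax6.

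Six3 (chromosome 17, 85613608 to 85626191) stood at 12.1, 12.4 and 12.7 FPKM in WT and 11.8, 10.9 and 10.3 FPKM in FNcKO. All FNcKO values lay below all WT values, by a narrow margin for FNcKO replicate 1. The log2 change was -0.16 (95% interval -0.33 to 0.01; limma unadjusted p = 0.0557, adjusted p = 0.285). Mab21l1 (chromosome 3, 55782510 to 55785287, 1 exon) was the steadiest factor in WT, at 11.9, 12.2 and 12.01 FPKM, a coefficient of variation of 1.32%. In FNcKO it stood at 11.2, 11.6 and 9.79 FPKM, all below WT, with replicate 3 the farthest. Its log2 change was -0.14 (95% interval -0.32 to 0.05; limma adjusted p = 0.41).

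Among the epithelial factors, Tfap2a (chromosome 13, 40715302 to 40738237) stood at 8.39, 9.32 and 8.08 FPKM in WT. In FNcKO it stood at 6.46, 7.20 and 7.59 FPKM, each below every WT value. The WT mean was 1.21 times the FNcKO mean and the log2 change was -0.25 (SE 0.083, 95% interval -0.45 to -0.04; limma unadjusted p = 0.0253, adjusted p = 0.21). Foxe3 (chromosome 4, 114925147 to 114926013, 1 exon) had the lowest log2 change of the 10, -0.28, but also the widest spread in WT.

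Foxe3 values were 11.0, 11.8 and 14.5 FPKM in WT and 8.66, 11.8 and 9.78 FPKM in FNcKO. FNcKO replicate 2 lay within the WT range, so the groups overlapped (95% interval -0.63 to 0.07; limma adjusted p = 0.374). The Foxe3 row spans 867 bases, shorter than the gene in RefSeq (114924443 to 114926067). Pitx3 (chromosome 19, 46135294 to 46148325) stood at 12.9, 16.0 and 14.4 FPKM in WT and 12.3, 12.8 and 13.2 FPKM in FNcKO. WT replicate 1 fell among the FNcKO values, and the log2 change was -0.16 (95% interval -0.37 to 0.06; limma adjusted p = 0.408). Of the listed epithelial markers, 3 of 12 passed limma's test, all higher in FNcKO, where 0.857% of all genes tested were. Those 3 were Slc7a5, Epha2 and Aqp1. Over the list 5 log2 changes were above 0 and 7 under 0, with a median of -0.01. Krt18 had the smallest p of the lower ones, at 4.33 ± 0.488 FPKM in WT and 2.34 ± 0.515 FPKM in FNcKO, without overlap (SD, n = 3 each; limma adjusted p = 0.0751). Epha2 missed the threshold with each of the 6 libraries left out in turn (adjusted p from 0.087 to 0.164), and Slc7a5 and Aqp1 with each but FNcKO replicate 1 (0.049 and 0.0309 without it, up to 0.155 otherwise).

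**Figure D2:**
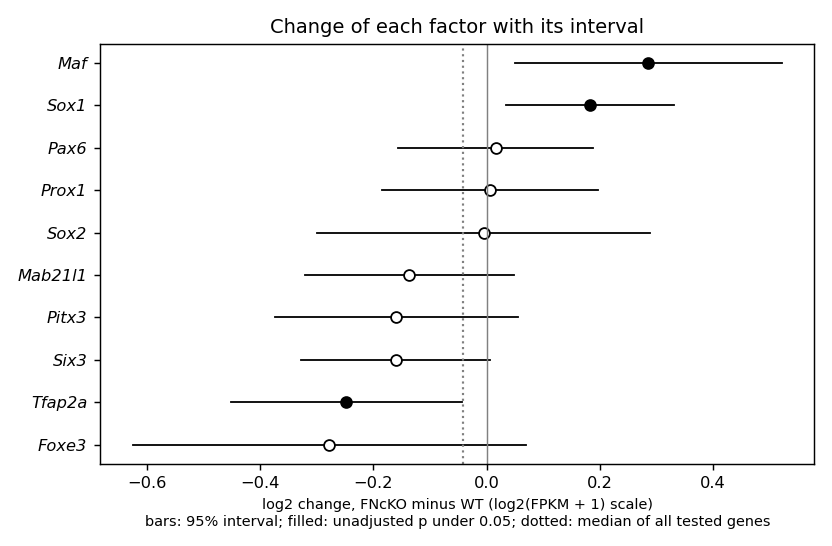
Log2 change of each factor (FNcKO minus WT, log2(FPKM + 1) scale) with its 95% interval from limma; filled points have an unadjusted p under 0.05 and the dotted line is the median of all tested genes, -0.04. Maf and Sox1 lie to the right with intervals above 0, Tfap2a to the left with its interval below 0, and the other 7 intervals cross 0.

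The spread between libraries of one genotype differed among the factors. The coefficient of variation ran from 1.32% (Mab21l1) to 14.6% (Foxe3) in WT and from 3.39% (Pitx3) to 17.4% (Sox2) in FNcKO. The medians of the 10 were 3.54% and 8.12%, beside 9.2% and 11.9% over all genes tested, many of which had lower levels. For 9 of the 10 factors it was larger in FNcKO, which held for 60.7% of the 9407 tested genes with a value in every library; Pitx3 was the exception. Within FNcKO, replicate 2 was the highest library for 6 of the 10 factors, as it was for 50% of those 9407 genes. Within WT, replicate 1 was the lowest library for 8 of the 10 factors, beside 45.1% of the 9407 genes. WT replicate 2 was the highest for 7 of the 10, beside 30.2% of those genes. WT replicate 3 was the highest for 3 of the 10, beside 48.3%.

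How far a factor's difference can be read depends on the scaling of whole libraries. Summed over the rows complete in all 6 libraries, FPKM came to 1631866 to 1725738 in WT and 1251386 to 1519627 in FNcKO, lowest in FNcKO replicate 2. Setting all libraries to the same total shifted the all-gene median from a log2 change of -0.04 to 0.15; with crystallins left out of the total it became 0.29. With the second scaling all 10 factors had log2 changes above 0, from 0.12 for Foxe3 to 0.71 for Maf, and still none passed limma's test. A factor common to a whole library moves every gene and the median of all genes nearly alike. The distance of a gene from that median is thus roughly kept by construction and is no sign of stability. It was not kept exactly. From the deposited values to the same total without crystallins, it went from 0.0486 to 0.134 for Prox1 and from -0.119 to -0.0592 for Six3. Quantile normalization does not act by such a common factor. With it Prox1 lay 0.171 above the median, beside 0.0486 as deposited. As a description, Maf lay 0.33 to 0.43 and Sox1 0.23 to 0.29 above the median over the 5 scalings, the deposited one included. On the same scale Tfap2a lay between -0.21 and -0.16 and Foxe3 between -0.24 and -0.18.

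**Figure D3:**
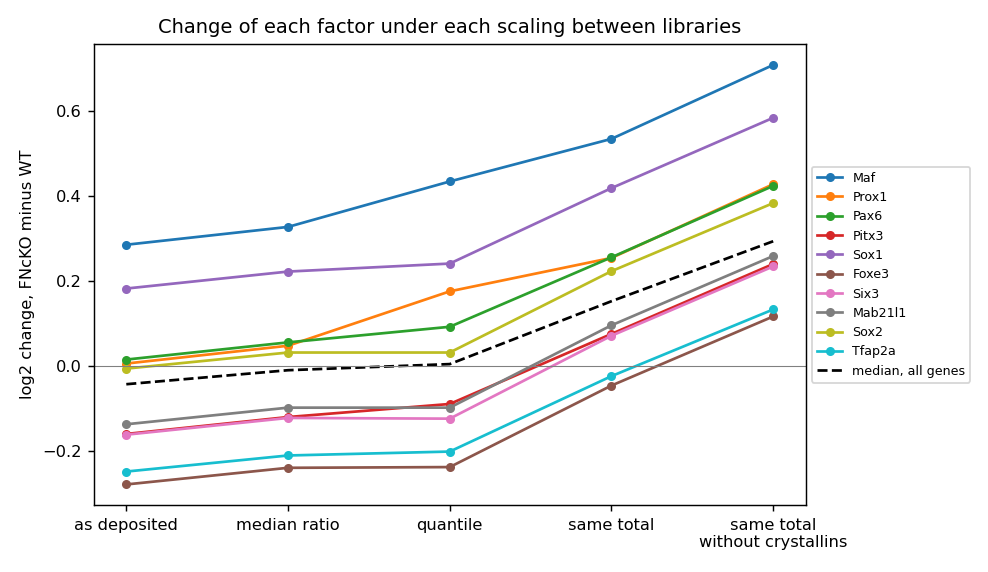
Log2 change of each factor (FNcKO minus WT) with the values as deposited and under 4 other scalings between libraries; the dashed line is the median of all tested genes. Where whole libraries are rescaled, the lines and the dashed line move up nearly together, as such a rescaling makes them do. Quantile normalization is no such rescaling, and there the lines shift unequally. The highest line, Maf, ends at 0.71.

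Ratios between 2 factors within a library do not change when that whole library is rescaled. Maf was 1.07, 1.11 and 1.07 times as high as Prox1 in WT and 1.28, 1.36 and 1.33 times in FNcKO, a mean of 1.09 ± 0.0203 against 1.32 ± 0.039 (SD, n = 3 each). The mean ratio of Maf to Tfap2a was 7.48 ± 0.331 in WT against 11.1 ± 0.765 in FNcKO (SD, n = 3 each), and that of Maf to Foxe3 5.23 ± 0.74 and 7.85 ± 0.486 (SD, n = 3 each). The groups did not overlap for 8 of the 9 ratios with Maf, Sox1 being the exception, where 51.3% of 9096 ratios of Maf to other tested genes did not. The groups also did not overlap for 6 of the 9 ratios with Sox1, where 40% of its 9096 ratios to other tested genes did not. Maf and Sox1 already differed without overlap on their own, and these counts largely restate that. Sox1 to Six3 was 1.09, 1.14 and 1.07 in WT and 1.37, 1.36 and 1.54 in FNcKO. Among the 28 ratios without Maf and Sox1, 6 did not overlap. Of all 45 ratios it was 20, where 26.1% of 41373156 ratios between pairs of tested genes did not overlap. Not every tested gene is in these wider sets of ratios. The 45 share the same 10 genes and libraries. The smallest p that an exact two-sided permutation test of 3 against 3 can give is 0.1, so no single ratio could pass 0.05. The ratios named were chosen after their values were seen, and a ratio shows unequal change without saying which gene differed.

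**Figure D4:**
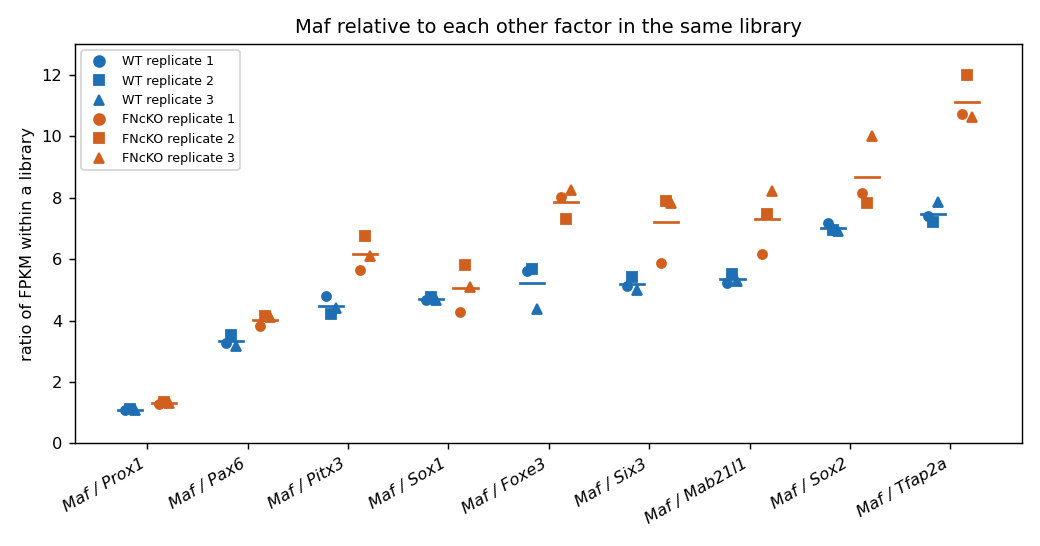
Ratio of Maf FPKM to that of each other factor within a library (linear axis from 0), with WT in blue, FNcKO in orange and bars at the means. FNcKO points lie above all WT points for each denominator but Sox1.

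Most of these loci hold a second transcript. By position, 9 other rows of the table overlapped 8 of the 10 factors; Maf and Foxe3 had none. The partners carry their names from RefSeq or GENCODE M21. The labels do not say whether strand was used in counting, so reads of a factor and of an antisense partner cannot be told apart where their exons meet. The filter kept 7 of the 9 rows. By limma 0 of them had an adjusted p under 0.05, and 1 an unadjusted p under 0.05.

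That row was Sox1ot, a noncoding gene on the same strand that spans Sox1 and shares none of its exonic bases in GENCODE. Sox1ot stood at 13.7, 14.7 and 15.8 FPKM in WT and 17.3, 25.7 and 20.4 FPKM in FNcKO, higher in every FNcKO library than in any WT library. Its log2 change was 0.48 (SE 0.145, 95% interval 0.12 to 0.83; limma unadjusted p = 0.017, adjusted p = 0.18), beside 0.18 for Sox1. FNcKO replicate 2 was the highest of the 3 for Sox1ot and the lowest for Sox1.

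Prox1os, which starts head to head with Prox1 on the opposite strand and shares 133 exonic bases with it, was the most abundant of the 9 partners. It stood at 41.6, 46.8 and 45.8 FPKM in WT and 47.4, 51.7 and 47.6 FPKM in FNcKO. The FNcKO values lay above the WT values, while those of Prox1 overlapped. The log2 change of Prox1os was 0.13 (95% interval -0.06 to 0.31; limma adjusted p = 0.442). The Prox1 sequence printed above lies within the span of Prox1os.

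Sox2ot, a noncoding gene that spans Sox2 on the same strand and shares no exonic base with it, exceeded Sox2 in every library. Its means were 29.95 ± 0.574 FPKM for WT and 30.6 ± 2.9 FPKM for FNcKO (SD, n = 3 each; limma adjusted p = 0.915). Six3os1, antisense to Six3 with 106 shared exonic bases, stood at 8.04, 8.88 and 8.07 FPKM in WT and 8.07, 5.88 and 6.18 FPKM in FNcKO. FNcKO replicate 1 lay among the WT values, and it was also the FNcKO library with the highest Six3. The log2 change of Six3os1 was -0.29 (95% interval -0.58 to 0.00; limma adjusted p = 0.28). Gm26688, antisense to Tfap2a with 380 shared exonic bases, stood at 1.49, 1.91 and 1.36 FPKM in WT and 1.27, 1.29 and 0.721 FPKM in FNcKO. Its groups did not overlap either, and its log2 change was -0.31 (95% interval -0.68 to 0.06; limma adjusted p = 0.353).

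The remaining partners were Nbea, Elp4, Pax6os1 and Elovl3. Nbea, the large gene on the opposite strand within which Mab21l1 lies, shares 981 exonic bases with it and stood at 6.46 ± 0.0794 and 6.22 ± 0.353 FPKM (SD, n = 3 each; limma adjusted p = 0.724). Elp4, which overlaps the end of Pax6, had limma adjusted p = 0.679. Pax6os1 and Elovl3 were below the filter, at no more than 0.435 FPKM in any library. A list of 10 noncoding and neighbouring genes, 7 found by name and largely these same rows, had 6 above the filter, of which 0 had a limma adjusted and 0 an unadjusted p under 0.05. After Six3os1 its smallest p was that of Wwox, the neighbour of Maf, at 3.79 ± 0.374 and 4.18 ± 0.478 FPKM (SD, n = 3 each; limma adjusted p = 0.594).

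**Figure D5:**
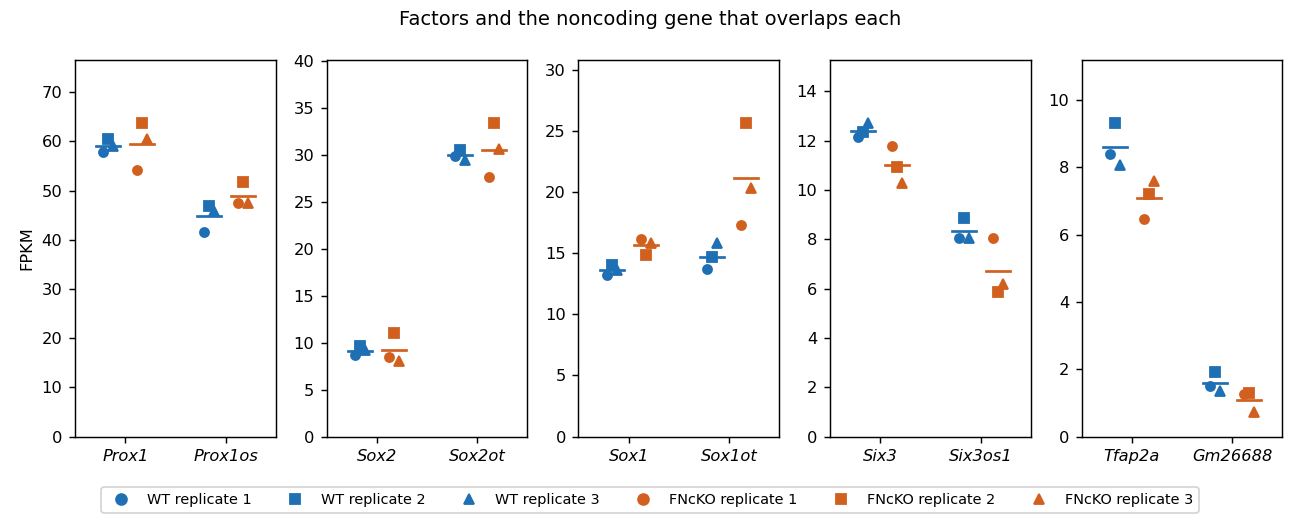
FPKM of 5 factors and of the noncoding gene overlapping each, by library (linear axes from 0, one scale per pair; bars are means). Prox1os lies below Prox1, Sox2ot lies above Sox2, and Sox1ot and Sox1 both have FNcKO points above all WT points.

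Paralogs of the 10 factors were mostly below the filter. Of 27 listed paralogs in the table, 24 had a mean under 1 FPKM, and Pax2, Pax5, Sox21 and Foxe1 were among those listed at 0 in every library. Mafg, a small Maf protein that pairs with other leucine zipper factors, had means of 8.54 ± 0.647 FPKM for WT and 9.01 ± 0.187 FPKM for FNcKO (SD, n = 3 each; limma adjusted p = 0.648). Nrl, the member of the Maf family known from rod photoreceptors, stood at 1.31 ± 0.548 and 0.928 ± 0.402 FPKM (SD, n = 3 each; limma adjusted p = 0.634). Of the paralogs above the filter, 0 passed limma's test and 0 had an unadjusted p under 0.05.

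A wider list of 45 other transcription factors and cofactors of the lens was measured beside them. The filter kept 27, of which 0 had a limma adjusted p under 0.05, where 1.89% of all genes did. An unadjusted p under 0.05 was found for 3 of the 27, where 18.1% of all genes had one, and the median log2 change was -0.02. Those 3 were Gata3, Meis2 and Hsf4. Gata3, a zinc finger factor of lens differentiation, stood at 1.51, 1.32 and 1.18 FPKM in WT and 1.09, 0.675 and 0.752 FPKM in FNcKO, without overlap (limma adjusted p = 0.219). Meis2, a homeodomain factor that regulates Pax6, stood at 8.90, 8.41 and 10.2 FPKM in WT and 8.19, 7.42 and 7.04 FPKM in FNcKO, also without overlap (limma adjusted p = 0.238). Hsf4, the heat shock factor of fiber cells, named after its values were seen because of its abundance, stood at 49.6 ± 4.45 and 59.3 ± 4.67 FPKM (SD, n = 3 each; limma adjusted p = 0.249).

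A list of 32 crystallin, fiber, cell cycle and receptor genes served as lens genes downstream of these factors; for some a direct action of one of them is not established. Of the 32, 3 rose and 0 fell in FNcKO, where 0.857% of all genes rose and 1.03% fell. An unadjusted p under 0.05 was found for 11, beside 18.1% of all genes, and the median log2 change was 0.15. The 3 were already known from these data when the list was made and are no independent evidence. Cryge, a gamma crystallin, went from 22490 ± 945 to 43150 ± 4670 FPKM (SD, n = 3 each; limma adjusted p = 0.0331), and Cryga from 3590 ± 619 to 8020 ± 1270 FPKM (SD, n = 3 each; limma adjusted p = 0.0422). Their sequences are similar to those of other gamma crystallins, and how fragments were divided among them is not known. Caprin2, an RNA-binding protein of fiber cells, rose 1.53-fold (limma adjusted p = 0.0204). Cryge and Cryga missed the threshold with any of the 6 libraries left out (adjusted p from 0.0704 to 0.2), and Caprin2 with any but FNcKO replicate 1 (0.0497 without it, up to 0.0811 otherwise). Caprin2 also missed it under both same-total scalings and with the replicate block (up to 0.139), and the 2 crystallin genes under 4 settings each, namely quantile normalization, the replicate block and both other filters (up to 0.247).

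The pattern over the 6 libraries was compared with that of every gene with a value in each, as the root mean square difference of centred log2(FPKM + 1). The genes closest to Sox1, the factor with the smallest p, were Traf6, an adaptor of immune receptor signalling, 2310036O22Rik and Lgmn, a lysosomal protease. They differed by 0.0154, 0.0178 and 0.025, where the median over all genes was 0.186. The genes closest to Maf, the most abundant factor, were Nt5dc2, Stambpl1 and Igsf9, at 0.0142, 0.0312 and 0.0315, where the median was 0.226. With 6 libraries and 9407 genes close matches are many, and likeness here describes levels in these libraries only.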

How the data were processed

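Total RNA libraries of 3 WT and 3 FNcKO samples were grouped by their titles, and the series' design text calls the samples of a genotype biological replicates. Frozen lenses were the starting material, and the library kit was a stranded one for pico inputs, per the labels' protocols. The values are FPKM, computed and deposited by the authors in 1 table with 1 column for each library. The submitters' processing notes name FastQC, cutadapt 1.12, TopHat2 2.1.0, Cuffdiff 2.2.1 and the builds mm10 and GRCm38.p5; their order, the annotation, strand use and scaling are not stated in the sources. Starts were raised by 1, after which 72.8% of 36794 matched symbols had the RefSeq start. WT replicate 2 has no value in 3578 rows, the end of the table, which hold none of the 10 factors.

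Genotypes were compared on log2(FPKM + 1) with limma 3.58.1 (R 4.3.3; trended empirical Bayes, two-sided tests, genotype alone in the model) over 10149 genes averaging 1 FPKM or more, 742 of them without WT replicate 2. P-values were adjusted by Benjamini-Hochberg over all genes tested, with a threshold of 0.05. Intervals are 95% intervals of limma. Depth is unknown: low values of 1914 single-exon genes matched whole fragments within 0.1 for only 36.5% to 39.3% of values at the best depth, where 20% would at a depth picked by chance, so no fragment numbers are given. The factors, gene lists and rule for naming genes were chosen with earlier results of these data known. The rule named all 10 factors, the rows overlapping them, for each of the 4 other gene lists the genes past the test or otherwise the 2 of smallest p, and the 3 genes most like Sox1 and Maf. Marker genes and paralogs listed at 0 are named outside it. Alternatives were another pseudocount, other filters, 4 scalings, no trend, the replicate number as a block and leaving out each library. RefSeq protein sequences were not used here, and some members of the gene lists are not reported here by name.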

Additional observations from a re-analysis of the deposited data

How the results depend on the processing

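None of the 10 factors passed limma's adjusted threshold under any of the 15 alternatives; the smallest adjusted p was 0.0948, for Maf without FNcKO replicate 1, where Maf otherwise ran up to 0.414. Maf and Sox1 kept log2 changes above 0 in all 15. The number of all genes past the threshold was 192 as deposited, 101 with no filter on low values, 89 with the same FPKM total, 86 with the same total without crystallins, and 37 to 117 with 1 library left out. The share of higher calls went from 45.3% to 56% with median-ratio scaling, 60.4% with quantile normalization, 70.8% with the same total and 76.7% without crystallins in the total.

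Log2 changes turned sign as follows. With the same total, Sox2 stood at 0.22, Pitx3 at 0.076, Six3 at 0.072 and Mab21l1 at 0.10. With the same total without crystallins, Foxe3 stood at 0.12, Sox2 at 0.38, Pitx3 at 0.24, Six3 at 0.23, Mab21l1 at 0.26 and Tfap2a at 0.13. Sox2 stood at 0.032 with median-ratio scaling and with quantile normalization. With 1 library left out in turn, the change ran from -0.13 to 0.075 for Sox2, from -0.044 to 0.071 for Prox1 and from -0.032 to 0.064 for Pax6, across 0 for all 3. The cause of these turns was not tested beyond the shift of the median of all genes. Group means of the factors moved by more than 1 SD in 1 of 20 cases with median-ratio scaling, 15 with the same total and 19 without crystallins in it.

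Same-numbered libraries did not deviate together (correlations of -0.0271, -0.0545 and -0.0461). Whether the numbers pair the samples cannot be decided from this, because each deviation is taken within a small group. With the replicate block 14 genes passed, and none of the 10 factors. The number of fragments behind each value is unknown, so the share of counting error in the spread cannot be given.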
